A study of Mus musculus with 12 samples.

Results

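Ribosome biogenesis was followed at the level of mRNA through 58 genes in adult neural stem cells (NSCs) of the mouse that either proliferated or had been made quiescent in culture. The genes were taken by symbol from the 17365 genes of the count table: the Nop, Nol, Utp and Rrp families, Polr1a to Polr1e, and Nolc1, Wdr12, Wdr43, Wdr75, Bop1, Pes1, Fbl, Ncl, Npm1, Dkc1, Gar1, Nhp2, Mdn1, Bms1 and Tsr1. The rule used symbols only. All 58 passed the filter on low counts and were among the 13312 genes tested, and the lowest count of any of them in any library was 119. By their known roles, 5 encode subunits of RNA polymerase I, 3 are abundant nucleolar proteins, 8 belong to small nucleolar ribonucleoproteins (snoRNPs), 13 act in maturation of the large ribosomal subunit and 24 in that of the small subunit. The other 5 were given no ribosome role here. They are Nol3, an apoptosis repressor, the nucleolar proteins Nol4, Nol4l and Nol8, and Ncln (nicalin), a protein of the endoplasmic reticulum membrane that matched only because the rule allows a letter after Ncl.

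The 12 libraries came from 2 NSC lines, ANS4 (strain MF1) and BL6 (strain C57BL/6), derived from the subventricular zone of wild-type mice 6 to 8 weeks old. Cells of each line were kept for 3 days in EGF/FGF (EGF and FGF2, 10 ng/ml each), which maintains proliferation, in BMP (BMP4, 10 ng/ml), which gives the dormant quiescent cells called d-qNSCs, or in BMP/FGF (BMP4 and FGF2, 10 ng/ml each), which gives the primed quiescent cells called p-qNSCs. Each line and condition had 2 libraries from separate biological replicates, so each condition had 4, and no library carried a transgene or a deletion. Each strain is represented by a single line, so that line and strain cannot be told apart.

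Library totals were between 18069052 and 19451818 estimated counts. All 8 markers of neural stem or astrocyte-like cells were tested, and their sum in CPM (counts scaled to a common library total) ranged over 7371 to 8040 for EGF/FGF, 10910.1 to 12450.3 for BMP and 14292 to 14780.1 for BMP/FGF. The 6 neuroblast or neuron markers in the table summed to 571 to 604 CPM, 1308 to 2006 CPM and 938 to 1017 CPM in the same order, and the 6 oligodendrocyte lineage markers to 605 to 665, 424 to 610 and 565 to 592 CPM. The 5 ependymal markers found summed to 73.6 to 90.8, 201 to 247 and 210.2 to 222 CPM, the 4 endothelial markers found to 39.1 to 47.2, 5.58 to 9.30 and 14.98 to 19.05 CPM, and the 4 microglial markers found stayed at or under 3.61 CPM, with Csf1r at the level of 3 counts or fewer. The 15 proliferation markers summed to 3767 to 4442 CPM in EGF/FGF, 627 to 895 CPM in BMP and 422 to 443 CPM in BMP/FGF. The part of these other markers, and of the share of cycling cells, in the differences of the members was not tested.

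Ribosomes are built in the nucleolus. RNA polymerase I transcribes the ribosomal DNA into a long precursor, snoRNPs guide methylation and pseudouridylation of that precursor, and the small subunit processome and the large subunit assembly factors cut, fold and clothe it with ribosomal proteins. The genes of this pathway are transcribed strongly in growing and dividing cells, and several are known targets of the transcription factor Myc. The values here are mRNA levels and hold no measurement of ribosomal RNA, of ribosomes or of protein synthesis.

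In both quiescent conditions most members stood well below their level in proliferating cells. Summed over the 58 members, the level was 5700.2 ± 391.6 CPM (SD, n = 4) in EGF/FGF, 2844 ± 173 CPM in BMP and 2948 ± 43.1 CPM in BMP/FGF, and the EGF/FGF libraries, at 5269.6 to 6130 CPM, did not overlap the others. CPM are relative to the library, and in bulk RNA fewer cells with a high level and less RNA per cell cannot be told apart. In BMP against EGF/FGF, 52 members fell, 4 rose and 2 did not pass the test (edgeR's quasi-likelihood test on all 12 libraries, two-sided, with the line as a term and a Benjamini-Hochberg FDR under 0.05 over all tested genes). Of all tested genes, 38.8% fell and 40.8% rose in that comparison. The median log2 fold change of the members was -1.10, a fold of 0.466, against 0.02 over all tested genes, and 32 members were below -1. The 4 BMP libraries lay below all 4 EGF/FGF libraries for 50 members and above them for 4, where 34.8% and 36.3% of all tested genes did so.

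BMP/FGF against EGF/FGF gave 51 members lower, 5 higher and 2 not called, beside 38% and 40.9% of all tested genes, with a median of -1.02. The libraries did not overlap for 49 members that were lower and 5 that were higher, against 36.9% and 39% of all tested genes. Both comparisons share the EGF/FGF libraries. Between the quiescent states the median change was small for the members and for all tested genes alike. In BMP/FGF against BMP, 8 members were lower, 13 higher and 37 not called, beside 21.3% lower and 20.1% higher of all tested genes. The median was 0.05 for the members (quartiles -0.11 and 0.18). For all tested genes it was -0.0035 (quartiles -0.21 and 0.20). The libraries were apart for 7 members that were lower (18% of all tested genes) and 10 that were higher (17.6%). The 37 members not called differed by -0.21 to 0.19 on the log2 scale, with SE of 0.06 to 0.13.

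**Figure D1:**
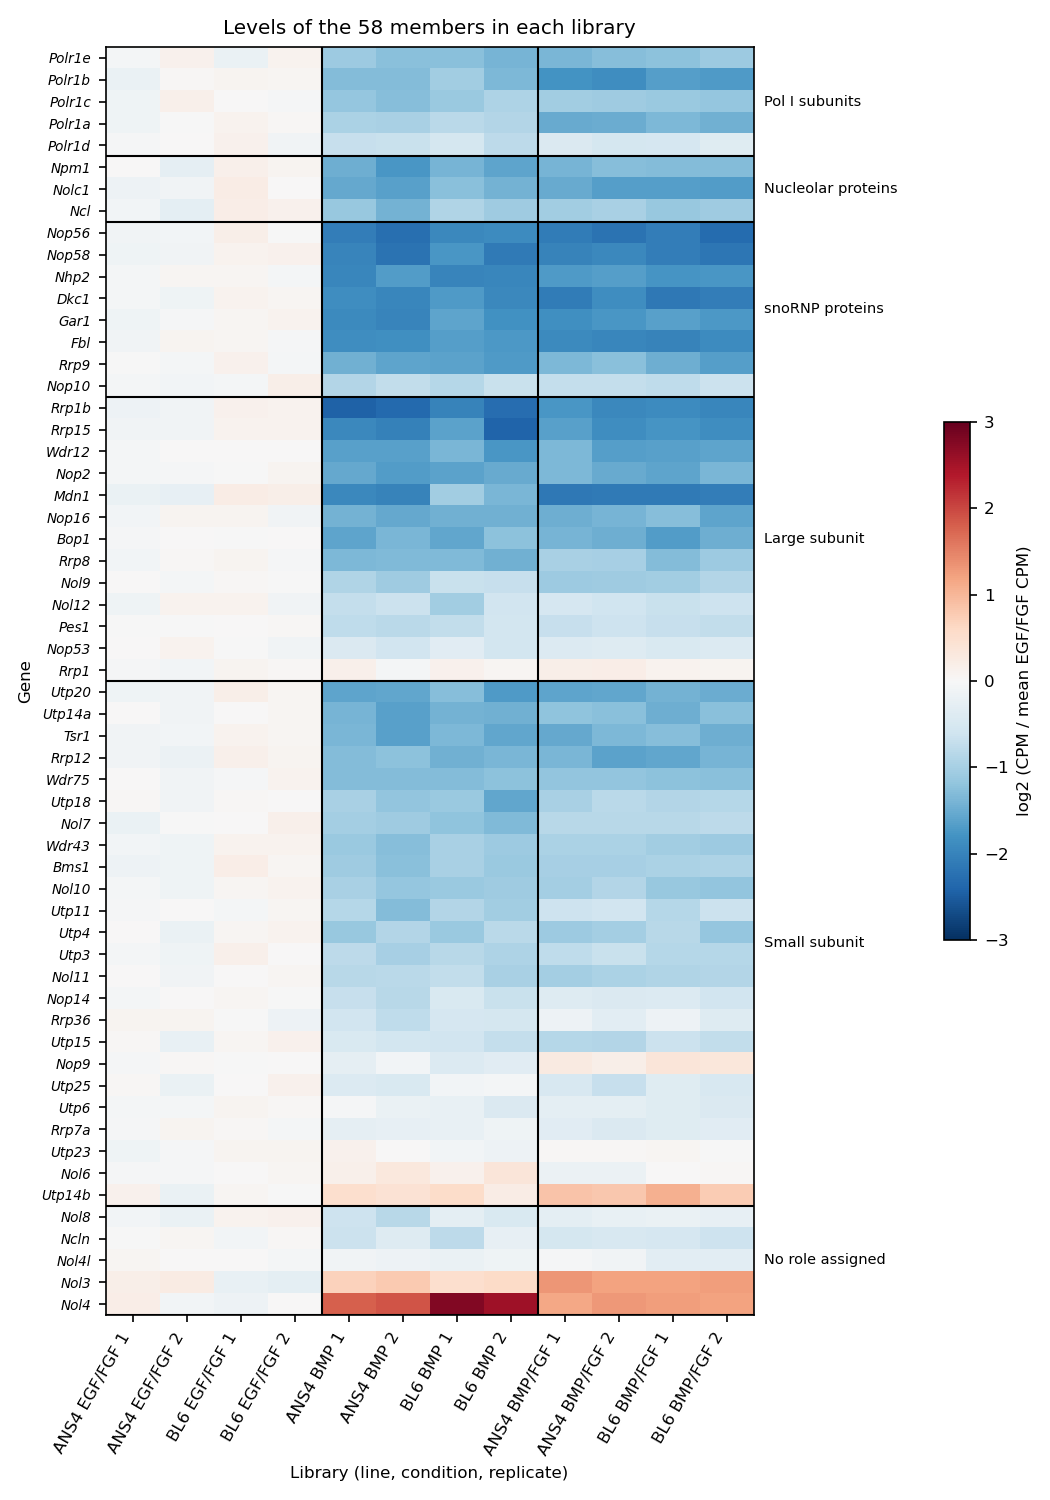
Levels of the 58 members (rows, grouped by role) in the 12 libraries (columns), as the log2 of CPM over the gene's mean CPM in the 4 EGF/FGF libraries, with blue for lower and red for higher levels. The snoRNP proteins, at a median log2 fold change of -1.84 in BMP, form the darkest block apart from the paler Nop10. Among the rows that stay pale or turn red are Rrp1, Utp23, Nol6, Nop9, Utp14b, Nol3 and Nol4.

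Since most members moved together, their promoters were read for 2 short motifs in the RefSeq table (GRCm38.p6), 250 bases upstream of each annotated start. Windows were found for 47 of the 58 members (56 windows, since some genes have several starts). The letters CACGTG, the palindromic E-box that Myc with Max and other factors can bind, were in windows of 6 members (12.8%), against 9.88% of other tested genes and 6.86% of all genes in the table. CCGGAAGT on either strand, a core of the sites that ETS factors can bind, was in windows of 7 members (14.9%), against 6.497% and 3.23%. The motifs share no overlapping letters in these windows, and a match is a description of the sequence, not evidence of binding. For 3 members with each motif, chosen with the match near the start, the 100 bases just before the start are shown. They run 5′ to 3′ on the strand of the gene, with the motif, in either orientation, in capitals. By role they are large subunit (Nop2), small subunit (Nol11, Utp18), snoRNP (Gar1, Nhp2) and RNA polymerase I (Polr1c) members. Utp4, a small subunit member whose first match to the second motif also begins 44 bases before its start, is not shown. The E-box begins 60 bases before the start in Nop2, 43 in Nol11 and 20 in Utp18, and the other motif 44 bases before it in Gar1, 23 in Nhp2 and 42 in Polr1c.
Nop2, chr6:125131783-125131882, plus strand: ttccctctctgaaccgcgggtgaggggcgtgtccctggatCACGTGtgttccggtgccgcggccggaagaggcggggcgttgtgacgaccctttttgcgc
Nol11, chr11:107189382-107189481, minus strand: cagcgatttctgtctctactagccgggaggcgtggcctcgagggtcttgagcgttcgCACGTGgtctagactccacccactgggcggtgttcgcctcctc
Utp18, chr11:93885767-93885866, minus strand: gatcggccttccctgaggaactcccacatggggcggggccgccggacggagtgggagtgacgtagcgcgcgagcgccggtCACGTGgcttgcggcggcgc
Gar1, chr3:129831397-129831496, minus strand: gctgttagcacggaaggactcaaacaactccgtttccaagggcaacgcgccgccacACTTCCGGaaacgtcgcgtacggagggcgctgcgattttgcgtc
Nhp2, chr11:51619673-51619772, plus strand: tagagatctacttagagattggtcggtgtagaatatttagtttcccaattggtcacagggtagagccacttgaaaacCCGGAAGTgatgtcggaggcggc
Polr1c, chr17:46248046-46248145, minus strand: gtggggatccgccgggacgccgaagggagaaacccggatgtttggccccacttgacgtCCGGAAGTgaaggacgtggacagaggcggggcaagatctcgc
All 6 of these genes fell in both quiescent conditions, but they were chosen for the place of the motif and do not stand for all members that hold it. In BMP against EGF/FGF the log2 fold changes of the E-box genes were -1.58 for Nop2, -0.83 for Nol11 and -1.19 for Utp18, and those of the others -1.82 for Gar1, -1.89 for Nhp2 and -1.11 for Polr1c. Of the other E-box members, Rrp7a changed by -0.22 and Utp25 by -0.25, and Utp14b, with an E-box 63 bases before its start, rose by 0.43. The other 4 members with the second motif, Bms1, Nol10, Utp3 and Utp4, lay between -1.10 and -0.89.

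All 5 members that encode RNA polymerase I subunits fell in both quiescent conditions, beside 38.8% (BMP) and 38% (BMP/FGF) of all tested genes. Their summed level was 309 ± 15.8 CPM in EGF/FGF, 166 ± 8.28 CPM in BMP and 154 ± 4.19 CPM in BMP/FGF. Polr1a encodes the largest, catalytic subunit (chr6:71909053-71984935, plus strand, mm10). Listed from here on as ANS4 replicates 1 and 2, then BL6 replicates 1 and 2, Polr1a was at 100.2, 108, 117 and 113 CPM in EGF/FGF, at 57.04, 56.2, 62.9 and 59.2 CPM in BMP and at 38.4, 39.3, 43.2 and 40.6 CPM in BMP/FGF. The 3 conditions did not overlap, and BMP/FGF was the lowest. The log2 fold change was -0.90 ± 0.05, FDR = 5.1e-11 for BMP against EGF/FGF and -0.54 ± 0.06, FDR = 9.4e-07 for BMP/FGF against BMP. Polr1b, the second-largest subunit, forms the catalytic centre together with Polr1a. It read 28.8, 33.7, 34.9 and 34.5 CPM in EGF/FGF, 13.5, 13.3, 15.9 and 12.9 CPM in BMP and 9.54, 9.06, 10.5 and 10.1 CPM in BMP/FGF, again with no overlap and with BMP/FGF lowest. Its log2 fold change was -1.24 ± 0.08, FDR = 1.4e-10 in BMP and -0.50 ± 0.09, FDR = 2.4e-04 from BMP to BMP/FGF.

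Of the members whose proteins RNA polymerase I shares with RNA polymerase III, Polr1d rose from BMP to BMP/FGF. It was at 102, 105, 113 and 97.1 CPM in EGF/FGF, 64.2, 66.1, 72.1 and 60.5 CPM in BMP and 76.8, 72.8, 73.7 and 80.9 CPM in BMP/FGF, so that both quiescent conditions were below EGF/FGF and all BMP/FGF libraries above all BMP libraries. Its fall in BMP was the mildest of the 5 at -0.67 ± 0.07, FDR = 5.3e-08, and the rise from BMP to BMP/FGF was 0.21 ± 0.07, FDR = 0.019. Polr1c, the other shared subunit among the members, went from 44.6 ± 3.64 CPM to 20.6 ± 2.12 CPM in BMP and 20.8 ± 0.786 CPM in BMP/FGF. Polr1e, a subunit particular to RNA polymerase I, went from 17.4 ± 1.78 CPM to 7.32 ± 0.613 and 7.36 ± 0.571 CPM. For both, BMP and BMP/FGF overlapped and the difference did not pass the test (FDR of 0.92 and 0.97). Per kilobase of a single annotated transcript, the order in EGF/FGF was Polr1d at 87.1 ± 5.702 CPM per kilobase, Polr1c at 33.9 ± 2.77, Polr1a at 11.9 ± 0.791, Polr1b at 8.25 ± 0.709 and Polr1e at 5.81 ± 0.595. Neighbours in this order did not overlap in EGF/FGF. In BMP/FGF, Polr1b at 2.45 ± 0.159 and Polr1e at 2.46 ± 0.191 CPM per kilobase overlapped.

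**Figure D2:**
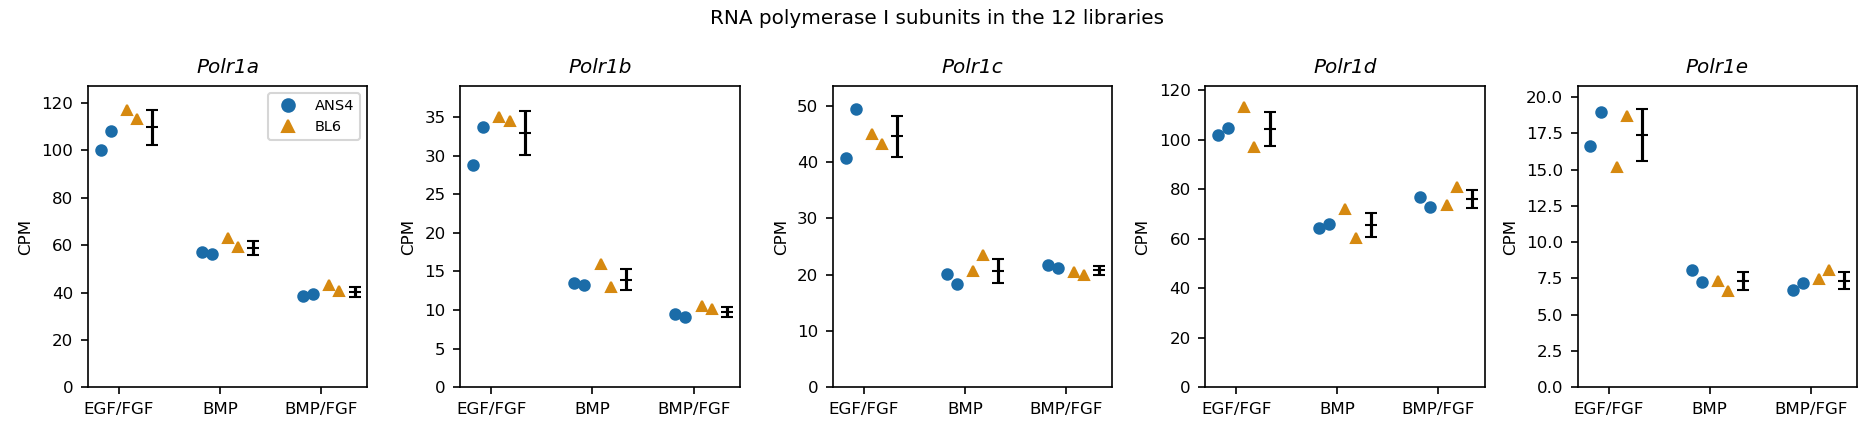
CPM of the 5 RNA polymerase I subunits among the members in the 12 libraries (circles, ANS4, and triangles, BL6). The mean and SD of the 4 libraries of each condition are at the right of the points. Axes start at 0. Polr1a and Polr1b fall again from BMP to BMP/FGF, Polr1d rises, and Polr1c and Polr1e overlap.

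The 8 snoRNP proteins had the lowest median of the groups in BMP against EGF/FGF, -1.84 (a fold of 0.279). All 8 fell in both quiescent conditions, beside 38.8% (BMP) and 38% (BMP/FGF) of all tested genes. Together they summed to 735 ± 41.4 CPM in EGF/FGF, 214 ± 9.86 CPM in BMP and 209 ± 5.45 CPM in BMP/FGF. Fbl is the methyltransferase of the box C/D particles (chr7:28169710-28179269, plus strand). It was at 137, 157, 155 and 145 CPM in EGF/FGF, 41.1, 41.3, 47.2 and 45.2 CPM in BMP and 39.3, 38.4, 37.2 and 40.4 CPM in BMP/FGF, with a log2 fold change of -1.76 ± 0.06, FDR = 4.1e-14 in BMP. Nop56, a scaffold of the same particle, was at 131, 135, 161 and 141 CPM in EGF/FGF, 33.6, 29.3, 37.1 and 38.1 CPM in BMP and 33.2, 30.4, 33.4 and 28.8 CPM in BMP/FGF. All quiescent libraries of both genes were far below all EGF/FGF libraries, and Nop56 changed by -2.04 ± 0.08, FDR = 7.5e-14 in BMP and -2.17 ± 0.08, FDR = 3.8e-14 in BMP/FGF, the lowest of all members in the latter. Its partner Nop58 changed by -2.004 and -2.04, and Rrp9, which binds the U3 snoRNA that the small subunit processome needs, by -1.58 and -1.42.

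In the H/ACA particle, Dkc1 (dyskerin), the pseudouridine synthase, went from 87.7 ± 6.72 CPM to 24.1 ± 2.06 CPM in BMP and 21.3 ± 1.96 CPM in BMP/FGF, log2 fold changes of -1.86 and -2.04. Its partners Nhp2 and Gar1 fell by a like amount, -1.89 and -1.82 in BMP. Nop10, the smallest protein of the particle, was the exception in size. It read 48.7, 47.7, 48.7 and 57.7 CPM in EGF/FGF, 27.5, 30.5, 27.8 and 31.7 CPM in BMP and 31.04, 30.8, 30.1 and 32.3 CPM in BMP/FGF. These groups did not overlap with EGF/FGF either, but the log2 fold change in BMP was -0.79 ± 0.07, FDR = 1.8e-08, milder than that of the other 7. Between BMP/FGF and BMP only Fbl passed the test among the 8, at -0.17 ± 0.07, FDR = 0.047, and that call held in 9 of 22 alternative settings.

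Npm1 (nucleophosmin) and Ncl (nucleolin) were the most abundant members in CPM. Npm1, a histone chaperone of the nucleolus, was at 919, 758, 1026 and 970.5 CPM in EGF/FGF, 331, 275, 351 and 309 CPM in BMP and 349, 379.9, 370.4 and 374 CPM in BMP/FGF. The quiescent libraries were all lower, with -1.53 ± 0.08, FDR = 6.2e-12 in BMP, and BMP/FGF was slightly above BMP, 0.22 ± 0.08, FDR = 0.034, with overlapping libraries and a call that held in 12 of 22 settings. Ncl, which binds ribosomal DNA and the precursor RNA, was at 832, 714, 999 and 954 CPM in EGF/FGF, 397, 329.9, 469 and 419 CPM in BMP and 424, 446, 397 and 418 CPM in BMP/FGF. It changed by -1.11 ± 0.09, FDR = 2.8e-09 in BMP. Nolc1, a chaperone of snoRNPs, went from 166 ± 19.95 CPM to 60.8 ± 6.696 and 53.7 ± 2.97 CPM, changes of -1.45 and -1.62.

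Of the 13 large subunit factors, 12 fell in BMP and 1, Rrp1, did not pass the test, with a median of -1.43. In BMP/FGF 12 fell and Rrp1 rose, again at a median of -1.43. The shares of all tested genes were 38.8% lower and 40.8% higher in BMP, and 38% and 40.9% in BMP/FGF. The PeBoW complex, needed for the cuts that free the large subunit RNA, is made of Pes1, Bop1 and Wdr12, and its members fell unequally. Bop1 changed by -1.43 ± 0.08 and Wdr12 by -1.58 ± 0.09 (log2, SE), but Pes1 by -0.71 ± 0.06, from 143, 144, 146 and 148 CPM to 85.3, 82.5, 87.5 and 99.7 CPM. Nop2, a methyltransferase of the large subunit RNA, changed by -1.58, Rrp15 by -1.96, Nop16 by -1.45 and Rrp8 by -1.35. The 4 mildest falls were in Nol9, a polynucleotide kinase, at -0.83, Nol12 at -0.73, Pes1 and Nop53, the last at -0.47. Mdn1 (midasin), the very large ATPase that pulls assembly factors off the particle, fell to 23.8, 22.6, 44.4 and 35.1 CPM in BMP from 78.8, 76.8, 106 and 102 CPM, and to 20.7, 20.97, 20.9 and 21.7 CPM in BMP/FGF. Within BMP, and also within EGF/FGF, the BL6 libraries were above the ANS4 libraries.

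The paralogs Rrp1 and Rrp1b went apart. Rrp1b (chr17:32036100-32062865, plus strand) had the lowest log2 fold change of all members in BMP. It was at 55.1, 56.7, 66.9 and 65.2 CPM in EGF/FGF, 11.4, 12.1, 15.3 and 12.5 CPM in BMP and 18.3, 16.1, 16.5 and 15.6 CPM in BMP/FGF, changes of -2.25 ± 0.09, FDR = 1.4e-13 in BMP and -1.87 ± 0.09, FDR = 1.2e-12 in BMP/FGF. Rrp1 (chr10:78400384-78413043, minus strand) was at 203, 196, 221 and 213 CPM, 232, 199, 229 and 217 CPM and 236, 241, 224 and 221 CPM in the same conditions. Its BMP libraries overlapped those of EGF/FGF, and its BMP/FGF libraries all lay just above them. The changes were 0.08 ± 0.06, FDR = 0.27 in BMP and 0.15 ± 0.06, FDR = 0.04 in BMP/FGF, the latter a call that held in 8 of 22 settings. Rrp1b made up 22.6% ± 0.966 of the CPM of the pair in EGF/FGF, 5.52% ± 0.654 in BMP and 6.73% ± 0.402 in BMP/FGF. How the quantification split reads between such related transcripts was not tested.

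Among the 24 small subunit factors, 21 fell, 2 rose and 1 did not pass the test in BMP, beside 38.8% lower and 40.8% higher of all tested genes. Their median was -0.93, milder than in the other groups with a ribosome role. In BMP/FGF 20 fell, 2 rose and 2 were not called, at a median of -0.80, beside 38% and 40.9% of all tested genes. The largest falls in BMP were in Utp20 (-1.52), Utp14a (-1.47), the late factor Tsr1 (-1.47), Rrp12 (-1.32), which acts in export of the particle, and Wdr75 (-1.29). Bms1, the GTPase of the processome, went from 84.6 ± 9.61 CPM to 39.4 ± 3.01 CPM in BMP and 43.2 ± 0.925 CPM in BMP/FGF, -1.10 and -0.97 on the log2 scale. The subcomplex that binds the precursor first fell throughout but not evenly, with -1.29 for Wdr75, -1.11 for Wdr43, -0.97 for Utp4, -0.83 for Nol11 and -0.56 for Utp15.

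At the other end, Utp23, Utp6, Rrp7a, Utp25 and Nop9 lay between -0.27 and -0.02 in BMP, and Nol6 rose. Nol6 was at 48.7, 48.6, 50.1 and 51.7 CPM in EGF/FGF, 55.6, 61.7, 54.5 and 63.7 CPM in BMP and 44.2, 43.9, 50.2 and 51.00 CPM in BMP/FGF, so that BMP stood above both other conditions, with 0.24 ± 0.07, FDR = 0.0028 against EGF/FGF and -0.32 ± 0.07, FDR = 0.0011 for BMP/FGF against BMP. Nop9 had the opposite course, lowest in BMP and highest in BMP/FGF. It was at 49.95, 52.8, 50.5 and 51.97 CPM in EGF/FGF, 42.7, 48.2, 38.5 and 40.5 CPM in BMP and 62.3, 57.9, 66.5 and 64.5 CPM in BMP/FGF, none of which overlapped. The changes were -0.27 ± 0.07, FDR = 0.0022 for BMP against EGF/FGF, 0.29 ± 0.07, FDR = 0.0012 for BMP/FGF against EGF/FGF and 0.57 ± 0.07, FDR = 9.1e-06 for BMP/FGF against BMP. Utp23 stood at 21.2 ± 1.48, 20.9 ± 1.703 and 21.6 ± 0.441 CPM, with neither comparison with EGF/FGF past the test (FDR of 0.83 and 0.76).

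The pair Utp14a and Utp14b also went apart. Utp14a, on the X chromosome, was at 42.2, 38.7, 41.9 and 43.7 CPM in EGF/FGF, 15.8, 13.5, 15.5 and 15.3 CPM in BMP and 17.9, 17.4, 14.98 and 17.5 CPM in BMP/FGF. Utp14b (chr1:78658038-78671512, plus strand), a retrocopy of Utp14a known for its need in male germ cells, was at 18.3, 14.6, 17.4 and 16.6 CPM, 23.7, 22.7, 24.5 and 19.4 CPM and 30.3, 29.2, 35.1 and 28.6 CPM. Utp14a fell with -1.47 ± 0.08, FDR = 1.1e-11 in BMP, and Utp14b rose with 0.43 ± 0.10, FDR = 5.8e-04 in BMP and 0.88 ± 0.10, FDR = 1.6e-07 in BMP/FGF. Exons of Utp14b overlap those of Acsl3, an acyl-CoA synthetase gene, on the same strand, and Acsl3 itself rose from 418 ± 52.99 CPM to 1208 ± 92.3 CPM in BMP and 1402 ± 36.5 CPM in BMP/FGF, log2 fold changes of 1.54 and 1.75. Reads of Acsl3 counted for Utp14b cannot be told apart from its own transcripts in these tables, so its rise is uncertain. A further 20 members share exon sequence with a gene on the opposite strand, and whether the libraries kept the strand is not given in the sources used here.

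**Figure D3:**
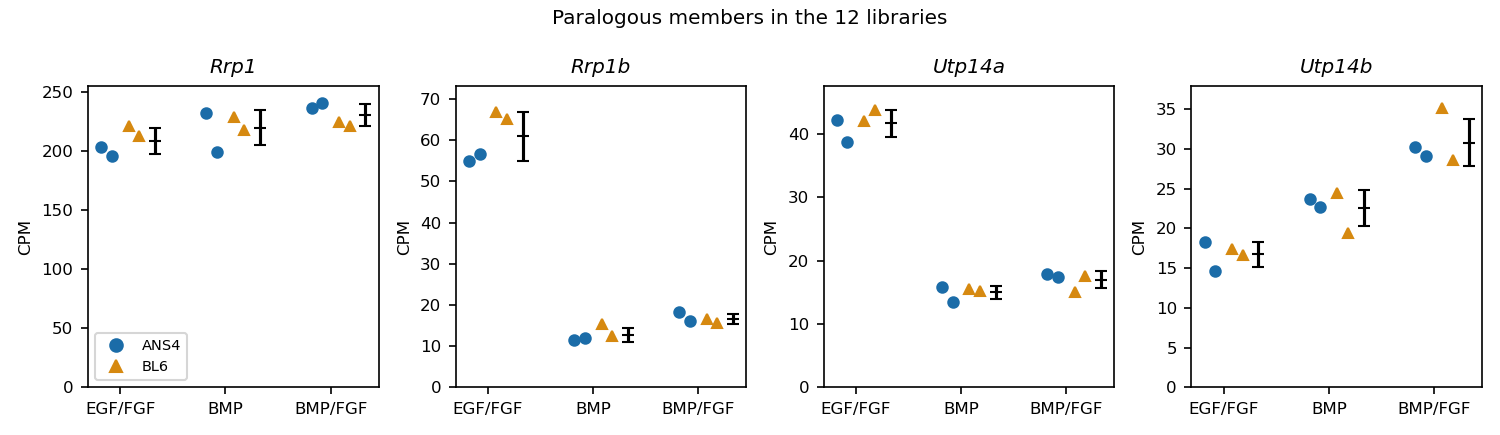
CPM of Rrp1, Rrp1b, Utp14a and Utp14b in the 12 libraries (circles, ANS4; triangles, BL6), with the mean and SD of each condition; axes start at 0. Rrp1b and Utp14a are lower in every quiescent library than in any EGF/FGF library, Rrp1 overlaps between EGF/FGF and BMP and is just above EGF/FGF in BMP/FGF, and Utp14b is higher in both.

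The 5 members with no ribosome role assigned split. Nol8 and Ncln fell in BMP, at -0.54 and -0.50, Nol4l was called at -0.15 in 12 of 22 alternative settings as well, and Nol3 and Nol4 rose. Nol3 was at 30.5, 31.9, 23.2 and 22.01 CPM in EGF/FGF, 43.4, 46.2, 37.9 and 40.2 CPM in BMP and 66.9, 62.2, 61.97 and 64.3 CPM in BMP/FGF. It rose stepwise, with 0.65 ± 0.08, FDR = 8.8e-07 for BMP against EGF/FGF and 0.61 ± 0.08, FDR = 9.2e-06 for BMP/FGF against BMP. Nol4 was at 12.9, 10.5, 10.04 and 11.2 CPM, 38.9, 40.96, 76.6 and 64.5 CPM and 24.8, 27.4, 26.5 and 25.8 CPM. It was the member with the largest rise, 2.28 ± 0.16, FDR = 2.6e-10 in BMP, and BMP/FGF lay between the other conditions in every library. Without these 5 genes, 49 of 53 members fell and 2 rose in BMP, with a median of -1.11, beside 38.8% and 40.8% of all tested genes.

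**Figure D4:**
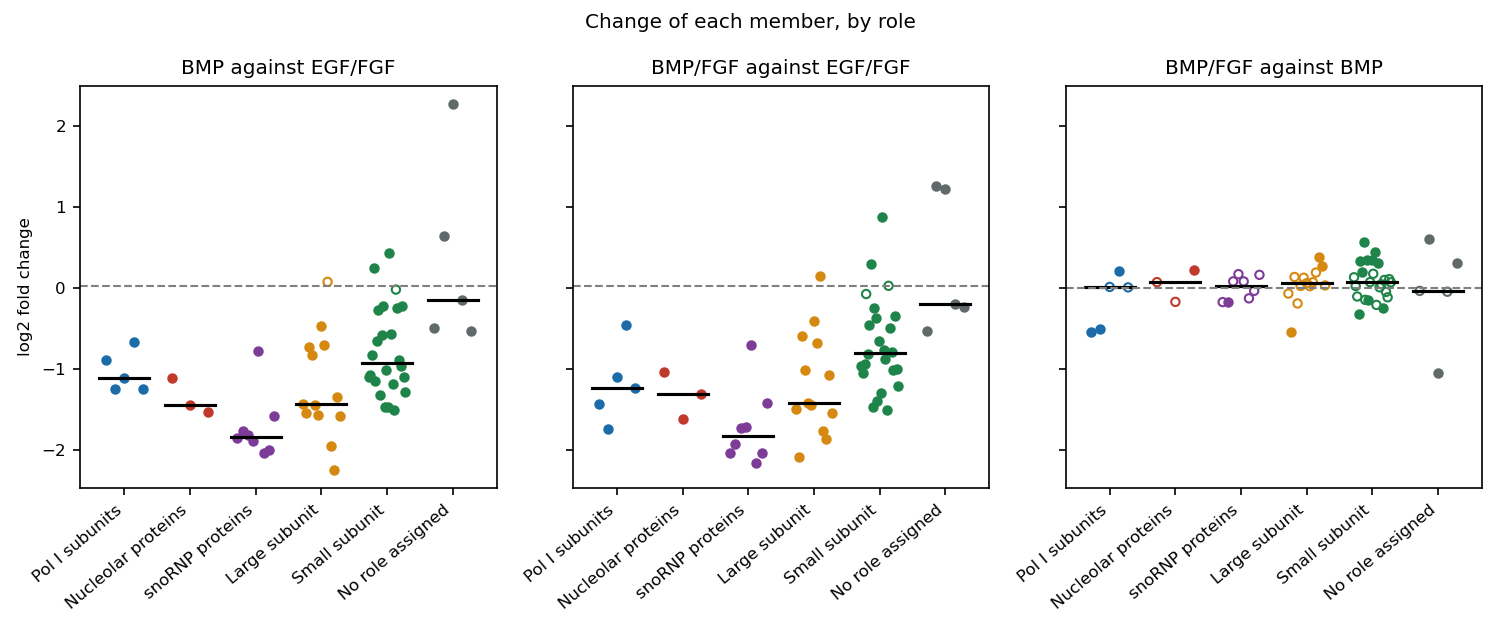
Log2 fold change of each member (points, filled where FDR was under 0.05) by role in the 3 comparisons, with the median of each group as a bar and the median of all tested genes as a dashed line. In the comparisons with EGF/FGF the group medians lie below the dashed line, lowest for the snoRNP proteins at -1.84 and -1.83, and between BMP/FGF and BMP they lie near 0.

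In the comparison of the quiescent states, 6 of the 58 members differed by more than 0.5 on the log2 scale. Those that were lower in BMP/FGF were Nol4 (-1.05), Polr1a (-0.54), Mdn1 (-0.54) and, at -0.50, Polr1b, and those that were higher were Nol3 (0.61) and Nop9 (0.57). Smaller falls passed the test in Nol6 (-0.32), Utp25 (-0.25), Fbl (-0.17) and Rrp7a (-0.15). Smaller rises did so in Utp14b (0.45), Rrp1b (0.38), Utp11 (0.35), Rrp36 (0.35), Nol7 (0.34), Utp18 (0.31), Nol8 (0.31), Rrp8 (0.27), Npm1 (0.22), Polr1d (0.21) and Nop14 (0.20). By role, the 24 small subunit factors had 7 of the 13 rises and 3 of the 8 falls, or 29.2% and 12.5% of these factors. Of all tested genes, 20.1% were higher and 21.3% lower. The 5 RNA polymerase I members had 2 falls and 1 rise. With the lines fitted apart, 43 of the 58 members had the same sign in both. All 21 called members did, but they were called from these same libraries. The members with the longest transcripts leaned lower. The median difference was 0.08 for the 19 members with the shortest transcripts (1042 to 2271 bases), 0.05 for the next 20 (2491 to 3634 bases) and -0.05 for the 19 longest (3694 to 17959 bases). Other tested genes of these lengths had medians of 0.07, -0.0041 and -0.09, and the part of length in the falls of Polr1a, Polr1b and Mdn1 was not tested.

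The response in BMP was alike in the lines for most members. The median log2 fold change was -1.03 in ANS4 and -1.15 in BL6, 57 of 58 members had the same sign in both, and the test of the difference between lines called 2 members, beside 9.02% of all tested genes. Nol7, a nucleolar protein of the small subunit group, was at 65.6, 74.4, 75.7 and 83.4 CPM in EGF/FGF, 36.8, 35.6, 32.2 and 29.9 CPM in BMP and 42.2, 42.04, 41.9 and 43.5 CPM in BMP/FGF. It changed by -0.95 in ANS4 and -1.37 in BL6, a difference of -0.41 ± 0.12, FDR = 0.037, and that call held in 7 of 19 settings. Nol4 rose by 1.77 in ANS4 and by 2.72 in BL6, a difference of 0.96 ± 0.16, FDR = 0.0015.

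Between BMP/FGF and BMP the lines differed in 3 members, beside 13.5% of all tested genes. Mdn1 changed by -0.15 in ANS4 and -0.90 in BL6, a difference of -0.75 ± 0.14, FDR = 0.0024, and it was not called in ANS4 alone. Nol4 changed by -0.61 and -1.43, a difference of -0.82 ± 0.15, FDR = 0.0015. Ncl changed by 0.26 in ANS4 and -0.12 in BL6, a difference of -0.38 ± 0.12, FDR = 0.044, and that call held in 7 of 19 settings. In BMP the proliferation markers were also higher in BL6, at 895 and 822 CPM, than in ANS4, at 652 and 627 CPM. They were so in EGF/FGF too, at 4442 and 4418 CPM in BL6 and 3767 and 3786 CPM in ANS4. The part of these markers in the higher Mdn1 of the BL6 libraries was not tested. Without BL6 BMP replicate 2, 10 members differed between the lines in BMP/FGF against BMP, beside 16.5% of all genes tested in that setting. Without BL6 BMP replicate 1, 6 did in BMP against EGF/FGF, beside 18.2%.

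**Figure D5:**
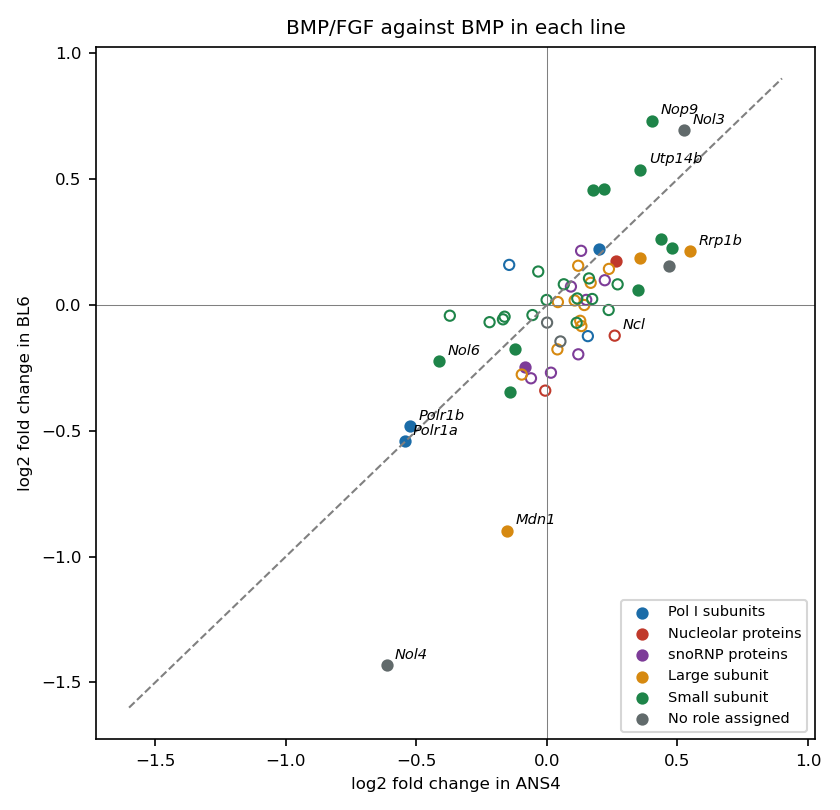
Log2 fold change of each member for BMP/FGF against BMP in ANS4 (horizontal) and BL6 (vertical), coloured by role and filled where the test over both lines gave an FDR under 0.05; the dashed line marks equal change. Polr1a and Polr1b lie near the dashed line, and Mdn1 and Nol4 lie below it, lower in BL6.

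Some members also carry snoRNA genes, which are processed from introns. In the mm10 annotation 7 of the 58 members (12.1%) contain 19 snoRNA genes, against 1.62% of other tested genes. They are Ncl, Dkc1, Nop56, Nop58, Nop53, Tsr1 and Wdr43. All 7 fell in BMP, with a median of -1.47, against -1.01 for the members without snoRNA genes, of which 45 of 51 fell. The 208 other tested genes that contain snoRNA genes had a median of -0.34. Dkc1, Nop56 and Nop58 also belong to the snoRNP group, with a median of -1.84, while Nop53 changed by -0.47. The part of the role in this difference was not tested. Host genes listed for their snoRNAs rather than for a protein fell as well. All 9 tested of this list were lower in BMP (median -0.9997), from Snhg15 at -2.06 to Zfas1 at -0.60. In BMP/FGF 7 were lower (median -0.91). Of all tested genes, 38.8% were lower in BMP and 38% in BMP/FGF. The snoRNAs themselves were not measured here.

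Other factors of the same pathway, which the symbol rule did not take, moved the same way. In BMP against EGF/FGF 38.8% of all tested genes fell and 40.8% rose. Of 34 other small subunit processome factors 33 fell in BMP and none rose (median -0.81), from the helicase Ddx21 at -1.72 ± 0.07, FDR = 1.8e-13 to Tsr3, which was not called at -0.06 ± 0.09, FDR = 0.5. Among 40 other large subunit assembly factors 35 fell and 1 rose (median -0.85). The lowest was Gnl3 (nucleostemin), from 91.3 ± 11.3 to 21.2 ± 4.47 CPM at -2.11 ± 0.09, FDR = 4.1e-13, and the one that rose was Sbds, a factor of late subunit maturation, from 59.6 ± 2.45 to 88.3 ± 11.8 CPM at 0.57 ± 0.09, FDR = 8.6e-06. All 12 snoRNP assembly factors fell (median -0.70), most of all Shq1, a chaperone of dyskerin, at -1.80, and least Naf1 at -0.24. The RNA exosome and its cofactors, which trim the precursor, fell in 14 of 16 genes (median -0.84), between Exosc8 at -2.15 and Exosc4, not called at -0.03. In BMP/FGF against EGF/FGF these lists had 32 of 34, 36 of 40, 11 of 12 and 15 of 16 genes lower. The share of all tested genes that was lower there was 38%. In BMP/FGF against BMP their medians were between -0.01 and 0.07.

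The listed partners of RNA polymerase I had a median nearer 0 than Polr1a to Polr1e. The list mixes initiation factors with further subunits of the enzyme and other factors that act on ribosomal DNA. Of 13 partners 9 fell and 1 rose in BMP, with a median of -0.32, beside 38.8% lower and 40.8% higher of all tested genes. Ubtf, the factor that keeps ribosomal DNA open, went from 199 ± 10.02 to 167 ± 12.96 and 152 ± 3.75 CPM, and Rrn3, which makes the polymerase competent to start, from 122 ± 0.869 to 98.1 ± 1.38 and 86.02 ± 3.44 CPM. Both were named after their values were seen, for their role. The lowest was Taf1d at -1.97 ± 0.15, FDR = 9.3e-10, and the helicase Dhx33 rose at 0.42 ± 0.06, FDR = 7.5e-06 and was -0.50 in BMP/FGF against BMP. Of 12 listed subunits of RNA polymerase II, 9 were lower (median -0.40, from Polr2h at -0.78 to Polr2l, not called at 0.21). Among them, Polr2e, Polr2f, Polr2h, Polr2k and Polr2l are also subunits of RNA polymerases I and III. Of 11 listed for RNA polymerase III, 6 were lower and 2 higher (median -0.20), beside 38.8% and 40.8% of all tested genes. Polr3g and Polr3gl, which take each other's place in RNA polymerase III, moved in opposite directions. Polr3g went from 16.4 ± 3.44 to 2.61 ± 0.5503 CPM at -2.64 ± 0.16, FDR = 5.6e-11, and Polr3gl from 7.94 ± 0.574 to 15.7 ± 2.13 CPM at 0.98 ± 0.12, FDR = 9.4e-07. Between BMP/FGF and BMP, Polr2a, the largest subunit of RNA polymerase II, changed by -0.47, beside -0.54 for Polr1a. It was set beside Polr1a after its value was seen.

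Of the regulators, Myc was at 99.02, 105, 109.9 and 102 CPM in EGF/FGF, 30.4, 34.4, 60.1 and 68.8 CPM in BMP and 40.9, 37.3, 40.96 and 41.3 CPM in BMP/FGF. The quiescent libraries were all lower, with -1.15 ± 0.14, FDR = 7.5e-07 in BMP and -1.38 ± 0.14, FDR = 8.2e-08 in BMP/FGF, and the BMP libraries were uneven between the lines. In BMP against EGF/FGF 38.8% of all tested genes fell and 40.8% rose. In a list of 6 genes around Myc and the nucleolar stress response, 4 fell and 2 rose in BMP. The lowest was Cdkn1a, an inhibitor of the cell cycle, at -2.06, and the highest Mycn, a relative of Myc, at 2.34. All 15 proliferation markers fell in BMP (median -2.45, from Mki67 at -2.88 to Pcna at -2.02). All 15 were lower again in BMP/FGF than in BMP (median -0.90), beside 21.3% of all tested genes. The median was -0.59 in ANS4 and -1.22 in BL6, and 9 markers differed between the lines, beside 13.5% of all tested genes. In this comparison the median of the ribosome biogenesis members was 0.05. The part of cycling cells in these values was not tested. Mki67 was at 656 ± 137, 91.4 ± 37.999 and 46.2 ± 3.503 CPM.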

How the data were processed

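RNA of 12 NSC cultures was sequenced from low input libraries on the BGISEQ-500RS. Per the submitters' processing notes and the study's methods, reads were trimmed with Trim Galore 0.5.0 and quantified with kallisto 0.44.0 against the mm10 transcriptome. The authors summarized them per gene with Tximport and deposited estimated counts, rounded to whole numbers; a second deposited table holds log2 values from the regularized logarithm of DESeq2 1.27.32, used here only in an alternative. Neither table holds fold changes or p-values of the authors.

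The counts were tested with edgeR 4.0.16 (R 4.3.3): TMM scaling, filterByExpr by condition, glmQLFit and glmQLFTest with condition and line as terms, all 12 libraries, Benjamini-Hochberg adjustment over 13312 genes and a call at FDR under 0.05. A line-by-condition fit tested differences between the lines. CPM use TMM-scaled totals, and SDs are over the 4 libraries of a condition. A single annotated transcript per gene (GENCODE, mm10) gave positions and lengths. DESeq2 1.42.0, limma 3.58.1, other scalings, no filter, fits to a single line and fits without a given library were the alternatives. The scripts were tested on simulated data. The members and gene lists were chosen with earlier results of these data known. Genes are named by role, by the 5 highest and 5 lowest log2 fold changes of each comparison, by calls against the common direction or between lines, as the lowest and highest of each other list, and, besides, Myc and Mki67; other names are said to have been chosen after their values were seen. Small subunit, large subunit and no-role members named for context, and Ncln, fall outside that rule and were also chosen so. Protein sequences were not used here.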

Additional observations from a re-analysis of the deposited data

Results flagged for a closer look

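In 6 of 174 groups of 4 libraries, 1 library stood apart from the other 3 by Dixon's test; chance alone flags about 1 group in 20, and 6 of 174 is 3.45%. Utp18 was at 67.5 CPM in ANS4 EGF/FGF replicate 2, against 73.5 to 74.5 CPM in the other EGF/FGF libraries, and Wdr12 at 41.0 CPM in ANS4 EGF/FGF replicate 1, against 42.8 to 42.9 CPM. Nhp2 was at 35.4 CPM in ANS4 BMP replicate 2, against 28.9 to 29.5 CPM, and Wdr75 at 26.2 CPM in BL6 BMP replicate 2, against 24.6 to 24.7 CPM. Nop10 was at 57.7 CPM in BL6 EGF/FGF replicate 2, against 47.7 to 48.7 CPM, and Nol9 at 24.02 CPM in BL6 BMP/FGF replicate 2, against 20.9 to 21.3 CPM. Each of these values lies on the same side of the other conditions as the rest of its group for the comparisons with EGF/FGF.

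The lines differed in the response of 4 members by the interaction of line and condition in edgeR. For BMP against EGF/FGF the log2 fold change of BL6 minus that of ANS4 was 0.96 ± 0.16 (SE, FDR = 0.0015) for Nol4 and -0.41 ± 0.12 (FDR = 0.037) for Nol7. For BMP/FGF against BMP it was -0.75 ± 0.14 (FDR = 0.0024) for Mdn1, -0.82 ± 0.15 (FDR = 0.0015) for Nol4 and -0.38 ± 0.12 (FDR = 0.044) for Ncl. The differences of Nol4 and Mdn1 passed the test in all 19 alternative settings that could be run, those of Nol7 and Ncl in 7 of 19 each.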

How the results depend on the processing

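No call of a member turned its direction under any alternative. Over the alternatives the members that fell in BMP numbered 49 to 52 and in BMP/FGF 48 to 51. Beside them, 31.2% to 39.2% and 30.1% to 41% of all genes tested fell. In BMP against EGF/FGF 51 of the 56 calls held throughout, in BMP/FGF against EGF/FGF 52 of 56, but in BMP/FGF against BMP only 7 of 21. Leaving out the 5 members with no ribosome role, an alternative chosen after seeing the data, left 2 members higher in BMP and 3 in BMP/FGF. The median in BMP against EGF/FGF was -1.03 with ANS4 alone, -1.15 with BL6 alone and -1.05 with limma on the log2 table, and -1.13 to -1.05 with single libraries left out. In BMP/FGF against EGF/FGF it was -0.91, -1.11 and -0.97 in the same order. In BMP/FGF against BMP the median was 0.0096 with library sizes alone and 0.12 with ANS4 alone. Members lower numbered 5 without the line term and 5 with ANS4 alone, beside 20% and 18.5% of all genes tested. With single libraries left out they numbered 5 to 9, beside 18.3% to 21.1% (5 without BL6 BMP replicate 1 and 5 without BL6 BMP/FGF replicate 1). Members higher numbered 5 with BL6 alone, beside 19.5%. Members with a line difference in BMP against EGF/FGF numbered 1 with library sizes alone, 1 with no filter, 1 with only the 8 libraries compared, 1 with limma, and 1 to 6 with single libraries left out (6 without BL6 BMP replicate 1), while 4.56% to 18.2% of all genes tested were called with single libraries left out. In BMP/FGF against BMP they numbered 6 with library sizes alone, beside 14.6% of all genes tested, and 2 to 10 with single libraries left out (10 without BL6 BMP replicate 2), beside 6.68% to 21.1%. The cause of these shifts was not tested. The fits of a single line or with a library left out also hold fewer libraries, and the part of this was not tested.

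The replicate numbers did not pair the samples (correlations of replicate differences between conditions from -0.0711 to 0.0529). With the replicate block, 51 members fell and 4 rose in BMP, beside 38.1% and 40% of all tested genes. In BMP/FGF against BMP 6 fell and 13 rose, beside 19.5% and 18.3%. In BMP against EGF/FGF 1 member differed between the lines, beside 7.66%. Estimated counts carry the error of assigning reads between related transcripts, which was not measured here, and 3 counts correspond to 0.155 to 0.168 CPM.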
